A study of Homo sapiens with 24 samples.

Results

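The genes described here are 10 targets of the hypoxia-inducible factors (HIF): BHLHE40, BHLHE41, ANKRD37, KDM3A, ADM, PFKFB3, PFKFB4, EGLN3, BNIP3 and DDIT4. They are the rows of the deposited gene table whose identifiers carry these symbols, 1 row per symbol, and make up 10 of 57820 gene rows. They were chosen by name as HIF targets with the measured difference between the genotypes at 0 h in view. Values at 0 h and every change from 0 h are therefore given as a description with no test, and tests are confined to comparisons among the libraries of 3, 6 and 48 h. All 10 passed the filter on low reads, the 2 scarcest being ANKRD37 with 19 to 336 reads per library and BHLHE41 with 21 to 1131.

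HIF is a pair of proteins, an alpha subunit (HIF1A or EPAS1) and the constant partner ARNT, that binds the letters ACGTG or GCGTG near its target genes. In the presence of oxygen the EGLN prolyl hydroxylases mark the alpha subunit, and VHL then directs it to destruction. When oxygen is scarce the alpha subunit persists, and genes for glycolysis, mitophagy and blood supply are transcribed. Pluripotent stem cells are known for a high rate of glycolysis. None of the sample labels names a low-oxygen treatment.

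The study followed mesoderm induction in HUES6, an established line of human embryonic stem cells grown in the medium FTDA, by mRNA sequencing. Cells carried a knockout (KO) of RBPMS, an RNA-binding protein gene, or were wild type (WT), and both were sampled untreated at 0 h and after 3, 6 and 48 h with 1.5 ng/ml of the growth factor BMP4 and 1.5 µM of CHIR, a GSK3 inhibitor that activates WNT signalling. Each of the 8 groups had 3 libraries. The labels do not say how the knockout was made, whether it is 1 clone, or whether replicate libraries are from cultures of their own, so p-values measure the spread between these libraries, which may be technical.

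The libraries held 29896358 to 50451908 reads on genes, and levels are CPM, the reads of a gene scaled to a common library size and not divided by gene length. RBPMS mRNA averaged 154.6 ± 2.59 CPM in KO, against 135.4 ± 17.2 CPM in WT cells at 0 h, and 86.9 ± 5.97 against 98.2 ± 4.74 CPM at 48 h (SD, n = 3 each), so the mRNA level does not check the knockout label. At 0 h 6 pluripotency markers were high in both genotypes, POU5F1 at 1768 to 2112 CPM in KO, against 1941 to 2204 CPM in WT libraries. POU5F1, SOX2 and DNMT3B overlapped between the genotypes, while NANOG (168 to 192 CPM in KO, against 105 to 133 CPM in WT), LIN28A (2699 to 2764 CPM, against 2179 to 2401 CPM) and TDGF1 (1687 to 1719 CPM, against 1195 to 1379 CPM) were higher in every KO library. Library 1 of WT at 0 h, library 3 of KO at 3 h and library 3 of WT at 48 h were treated as standing apart from the others of their groups. No measure of this is given here beyond the counts that follow. Among the 10 genes library 1 of WT at 0 h was the highest of its 3 libraries for 5 and the lowest for 5. Library 3 of KO at 3 h was the highest for 6 and the lowest for 1, and library 3 of WT at 48 h the highest for 3 and the lowest for 4.

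In the 250 bases before the RefSeq transcription start (GRCh38.p14), 9 of the 10 genes held ACGTG or GCGTG on either strand, against 43.1% of 27305 genes with a listed promoter. ACGTG was found in 5 of the 10 (18.7% of genes) and GCGTG in 7 (31.9%), and EGLN3 had neither in this window. These counts use the first listed start, since KDM3A and PFKFB3 have 2, and the second start of PFKFB3 also had ACGTG. The 5 promoters with ACGTG are shown 5′ to 3′ on the strand of the gene, ending at the base before the start, with the matches in capitals (CACGT and CACGC are ACGTG and GCGTG on the other strand). RefSeq starts can lie inside the longer gene spans of GENCODE 29 that are given further on.
ANKRD37, chr4:185396591-185396840, plus strand: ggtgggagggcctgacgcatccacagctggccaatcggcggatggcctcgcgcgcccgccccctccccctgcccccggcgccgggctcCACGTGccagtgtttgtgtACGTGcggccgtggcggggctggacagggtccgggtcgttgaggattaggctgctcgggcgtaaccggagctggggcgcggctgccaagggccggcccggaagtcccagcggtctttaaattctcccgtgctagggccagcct
BHLHE40, chr3:4979187-4979436, plus strand: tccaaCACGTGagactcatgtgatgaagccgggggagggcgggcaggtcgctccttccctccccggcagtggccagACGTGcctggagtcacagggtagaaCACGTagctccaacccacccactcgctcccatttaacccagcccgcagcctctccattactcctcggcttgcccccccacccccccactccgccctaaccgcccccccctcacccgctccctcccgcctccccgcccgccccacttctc
BHLHE41, chr12:26125038-26125287, minus strand: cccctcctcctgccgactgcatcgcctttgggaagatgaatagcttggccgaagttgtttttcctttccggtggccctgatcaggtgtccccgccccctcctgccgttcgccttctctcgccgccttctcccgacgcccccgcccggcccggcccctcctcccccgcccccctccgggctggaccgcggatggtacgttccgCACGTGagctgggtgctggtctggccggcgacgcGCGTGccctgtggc
BNIP3, chr10:131981924-131982173, minus strand: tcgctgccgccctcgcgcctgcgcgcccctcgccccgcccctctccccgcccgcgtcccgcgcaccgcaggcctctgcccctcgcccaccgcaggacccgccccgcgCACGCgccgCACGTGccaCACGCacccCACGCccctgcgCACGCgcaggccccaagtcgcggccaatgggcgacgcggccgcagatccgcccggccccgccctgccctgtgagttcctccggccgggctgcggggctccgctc
DDIT4, chr10:72273674-72273923, plus strand: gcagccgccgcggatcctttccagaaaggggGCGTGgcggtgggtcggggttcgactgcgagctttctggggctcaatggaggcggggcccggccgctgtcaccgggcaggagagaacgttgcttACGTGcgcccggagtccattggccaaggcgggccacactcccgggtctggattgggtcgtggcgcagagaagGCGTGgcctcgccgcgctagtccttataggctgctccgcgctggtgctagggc
In ANKRD37 the matches begin 162, 161 and 143 bases before the start, in BHLHE41 48, 47 and 14 bases before it, and in DDIT4 219, 125 and 53 bases before it. The run CACGTG reads as ACGTG on both strands and so counts there as overlapping matches. CACGTG is also the letters that BHLHE40 and BHLHE41 proteins bind, and it stood in 4 of the 10 promoters (BHLHE40, BHLHE41, ANKRD37 and BNIP3) against 6.49% of genes. A match is a run of letters, not a shown binding site, and binding was not measured here.

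At 0 h, before induction, 9 of the 10 genes were higher in KO than in WT cells with no overlap between libraries, and ADM overlapped. The log2 differences ranged from 0.46 to 2.81, with a median of 1.36 against 0.01 over all genes, and 10.1% of the 19835 genes tested were higher without overlap at this hour. These values were in view when the genes were chosen, so nothing is read from the count. Without library 1 of WT the count was again 9, the background 26.3% and the median 1.54. The plot of levels by library shows all 10 genes.

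**Figure D1:**
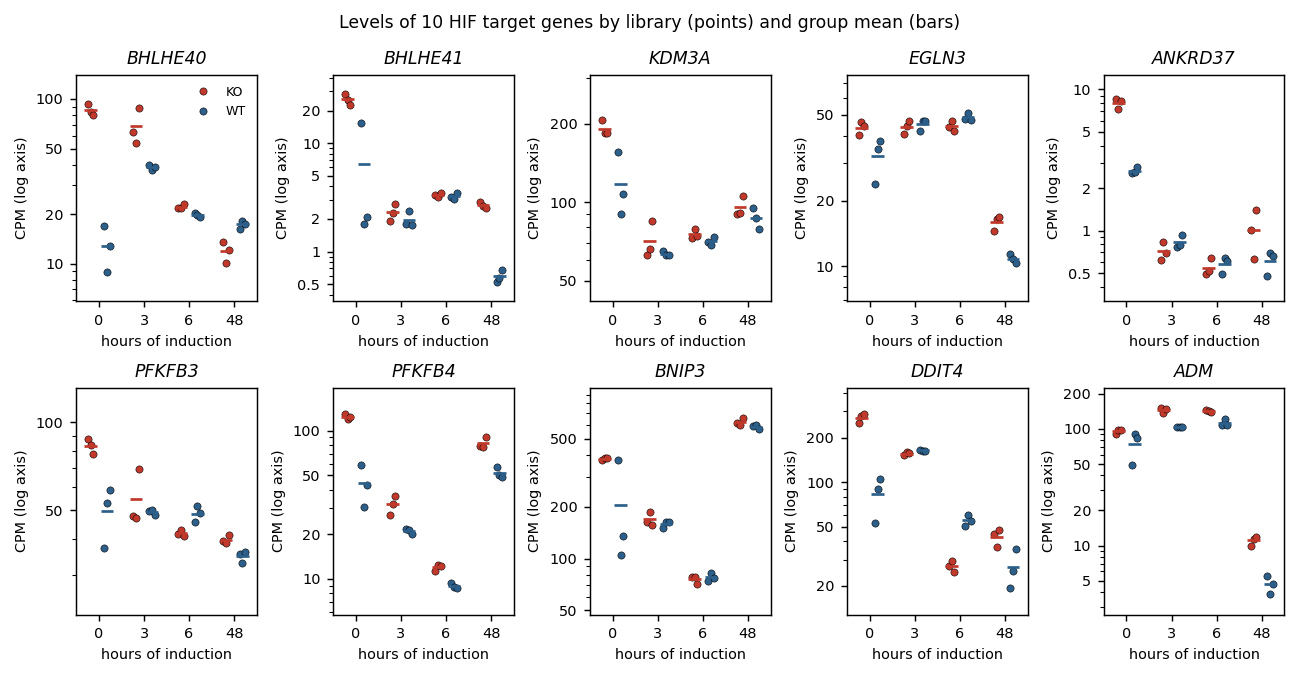
Levels of the 10 HIF target genes (CPM, log axes) by hour of induction, with KO in red on the left and WT in blue on the right at each hour, points for libraries and bars for group means (n = 3). At 0 h the KO points of 9 genes lie above all WT points, and at 48 h ADM and EGLN3 are at their lowest while BNIP3 is at its highest.

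BHLHE40 and BHLHE41 encode related repressors that bind CACGTG and dampen the circadian clock. At 0 h BHLHE40 (chr3:4979116-4985323, plus strand) had 93.8, 82.9 and 80.0 CPM in the KO libraries, against 16.9, 8.89 and 12.8 CPM in the WT libraries. BHLHE41 (chr12:26120026-26125127, minus strand) had 28.6, 24.8 and 22.5 CPM in KO, against 15.3, 1.80 and 2.09 CPM in WT. Both were higher in every KO library, and library 1 of WT was far above its mates for BHLHE41. The ratio of the means for BHLHE41 was 3.95 with that library and 13 without it. For BHLHE40 it was 6.66 with it and 7.91 without it.

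KDM3A removes methyl groups from lysine 9 of histone H3, and EGLN3 is 1 of the hydroxylases that mark HIF for destruction. KDM3A (chr2:86440647-86492716, plus strand) had 207, 185 and 184 CPM in KO, against 156, 89.9 and 107 CPM in WT cells at 0 h. EGLN3 (chr14:33924231-34462774, minus strand) had 40.2, 46.2 and 44.4 CPM in KO, against 24.02, 34.8 and 37.8 CPM in WT. All KO libraries were above all WT libraries for both genes, and the gap was narrow for EGLN3. ANKRD37 encodes an ankyrin repeat protein and lies at chr4:185396021-185400628 on the plus strand. It had 8.5, 7.21 and 8.24 CPM in KO, against 2.54, 2.60 and 2.80 CPM in WT, with all WT libraries close together.

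PFKFB3 and PFKFB4 make and break down fructose 2,6-bisphosphate, the activator that sets the pace of glycolysis. At 0 h PFKFB3 (chr10:6144934-6254644, plus strand) had 87.5, 83.4 and 78.3 CPM in KO, against 37.1, 53.2 and 58.8 CPM in WT. PFKFB4 (chr3:48517684-48562015, minus strand) had 129.6, 120.3 and 123.3 CPM in KO, against 58.9, 30.5 and 43.2 CPM in WT. Library 1 of WT was the lowest WT library for the first of these genes and the highest for the second.

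BNIP3 is a mitophagy receptor, DDIT4 an inhibitor of the growth kinase complex mTORC1, and ADM the precursor of the vasoactive peptide adrenomedullin. BNIP3 (chr10:131966455-131982013, minus strand) had 376, 383 and 386 CPM in KO, against 375, 106 and 136 CPM in WT cells at 0 h. DDIT4 (chr10:72273920-72276036, plus strand) had 249.7, 279 and 289 CPM in KO, against 53.3, 90.3 and 105 CPM in WT. ADM (chr11:10304680-10307397, plus strand) had 89.5, 97.4 and 98.4 CPM in KO, against 48.6, 90.5 and 83.3 CPM in WT. BNIP3 in library 1 of WT was thus at the KO level, DDIT4 in the same library was the lowest of all 6, and ADM in library 2 of WT lay within the KO range.

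Library 1 of WT at 0 h did not move the 10 genes one way. On the log2 scale it lay 79.4% of the way from its mates to the KO mean for BHLHE41, 67.9% for KDM3A and 96.6% for BNIP3, nearer KO than its mates in these 3 genes and nearer its mates in the other 7. Over all genes tested 64.3% were nearer KO in this library, as were 95.0% of the glycolysis genes and 91.7% of the ATF4 targets described further on. In EGLN3, PFKFB3, DDIT4 and ADM it lay below its mates, by 0.56, 0.56, 0.84 and 0.80 on the log2 scale. Across 20 glycolysis genes bound by HIF it was the highest WT library for 19, across 30 other HIF targets for 23, and across all genes tested for 41.4%. Its part in the values at 0 h was not tested. Counts of changes from 0 h in WT cells are for this reason also given without it.

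**Figure D2:**
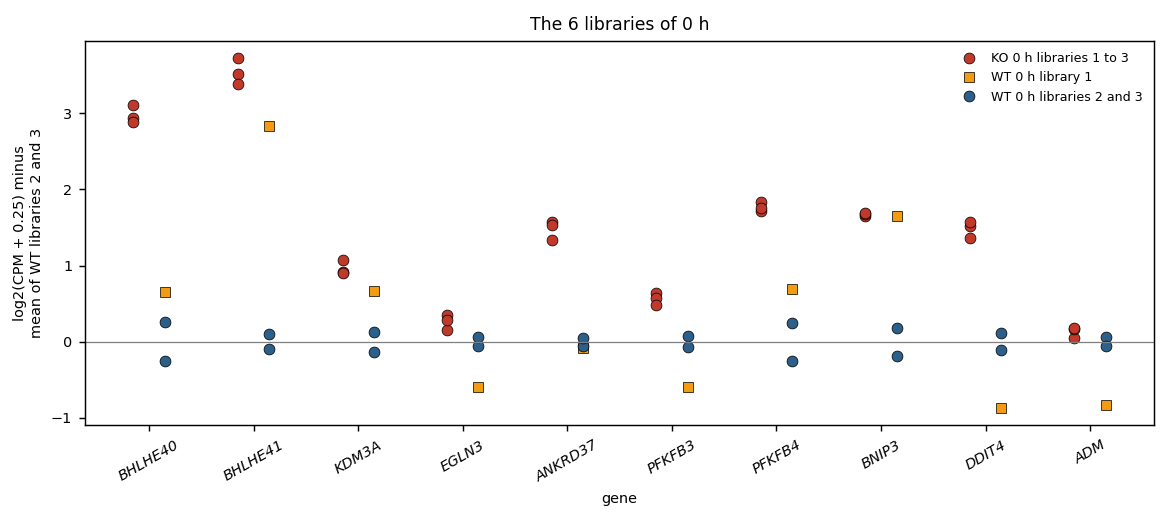
Levels of the 10 genes in the 6 libraries of 0 h, as log2(CPM + 0.25) minus the mean of WT libraries 2 and 3, with KO libraries in red on the left and WT libraries on the right (library 1 orange squares, libraries 2 and 3 blue). Library 1 of WT lies near the KO points for BHLHE41, KDM3A and BNIP3 and below its mates for EGLN3, PFKFB3, DDIT4 and ADM.

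Per kilobase of exon, with the exons of all annotated transcripts merged, DDIT4 was the highest of the 10 at 0 h in both genotypes. It had 132 CPM per kilobase in KO and 40.3 in WT cells. BNIP3 followed with 71.7 in KO and 38.6 in WT. ANKRD37 was the scarcest in KO with 3.09, and also in WT with 1.03. Without library 1 of WT DDIT4 was still first in WT with 47.5, but ADM stood before BNIP3 with 22.7, and BHLHE41 with 0.493 was scarcer than ANKRD37 with 1.05. At 48 h BNIP3 led with 117 CPM per kilobase in KO and 110 in WT, and the scarcest were ANKRD37 in KO (0.392) and BHLHE41 in WT (0.150). Merged exons (2058 bases for DDIT4, 5325 for BNIP3) can be longer than the mRNA present, so the order may differ by mRNA length. In CPM at 0 h BNIP3 was above DDIT4, at 382 against 272 in KO and 206 against 82.9 in WT.

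After 3 h of induction 2 of the 10 genes were higher in KO than in WT cells by limma with Benjamini-Hochberg adjustment over all 19835 genes, and none was lower, also at an unadjusted p under 0.05 and by edgeR and DESeq2. Of all genes 2.78% were called at this hour and 0.862% were called higher. BHLHE40 had 62.8, 54.4 and 87.8 CPM in KO, against 39.6, 37.3 and 38.5 CPM in WT, a log2 difference of 0.80 ± 0.17 (SE, adjusted p = 0.00621). PFKFB4 had 26.8, 31.98 and 36.5 CPM in KO, against 21.6, 21.3 and 20.04 CPM in WT, a log2 difference of 0.59 ± 0.15 (SE, adjusted p = 0.0322). In both genes every KO library was above every WT library, and library 3 of KO was the highest. Counted by libraries that do not overlap, 3 of the 10 were higher in KO and 1 lower, against 13.1% and 11% of all genes. Without that library neither was called, with adjusted p = 0.0607 for BHLHE40 and 0.178 for PFKFB4 by limma. PFKFB4 also lost its call when library 2 of KO or any 1 of the WT libraries at 3 h was left out (adjusted p from 0.0668 to 0.138).

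ADM was on the side of KO at 3 h without passing the test. Its levels were 149.8, 138 and 147 CPM in KO, against 104, 103 and 105 CPM in WT, with a log2 difference of 0.48 ± 0.15 (SE) and adjusted p = 0.0911 by limma. The spread in the test is pooled over all 24 libraries, and without library 1 of WT at 0 h, which is in neither group, its adjusted p was 0.00262. The other 7 genes had log2 differences between -0.16 and 0.21. KDM3A and PFKFB3 overlapped between the genotypes. KDM3A had 62.8, 65.9 and 84.7 CPM in KO, against 64.7, 62.5 and 62.4 CPM in WT, and PFKFB3 had 47.7, 47.0 and 69.5 CPM in KO, against 49.6, 50.1 and 48.0 CPM in WT.

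After 6 h DDIT4 was the 1 gene of the 10 called between the genotypes, and it was lower in KO cells, against 2.45% of all genes called in either direction and 1.9% called lower. It had 27.1, 29.4 and 24.7 CPM in KO, against 50.9, 59.7 and 55.1 CPM in WT, a log2 difference of -1.02 ± 0.19 (SE, adjusted p = 0.00184 by limma). The direction is opposite to that of the values at 0 h. Counted by libraries that do not overlap, 3 of the 10 were higher and 3 lower in KO, against 15.3% and 14.9% of all genes. ADM had 146, 142 and 138 CPM in KO, against 108, 122 and 107 CPM in WT, and PFKFB4 had 11.3, 12.4 and 12.2 CPM in KO, against 9.33, 8.80 and 8.63 CPM in WT. Neither overlapped and neither passed the test, with log2 differences of 0.35 and 0.42 and adjusted p = 0.356 and 0.21 by limma. Without library 1 of WT at 0 h in the pooled spread both did, with adjusted p = 0.0248 for ADM and 0.0163 for PFKFB4, and the count was 3 in place of 1. Over all genes it was then 942 of 20292 in place of 486 of 19835.

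The other 7 genes lay between -0.21 and 0.17 at 6 h. BHLHE40 was at 22.2 ± 0.65 CPM in KO, against 19.8 ± 0.49 CPM in WT cells (SD, n = 3 each), a log2 difference of 0.17 ± 0.17 (SE). BHLHE41 was at 3.31 ± 0.14 CPM in KO, against 3.25 ± 0.23 CPM in WT, and BNIP3 at 75.7 ± 4.15 CPM in KO, against 77.6 ± 4.62 CPM in WT (SD, n = 3 each). A difference that misses the threshold does not show equal levels. The standard errors ran from 0.12 for EGLN3 to 0.43 for BHLHE41 on the log2 scale. They come from the spread pooled over all 24 libraries and are the same at 3, 6 and 48 h. For BHLHE41 that spread includes library 1 of WT at 0 h (15.3 CPM, against 1.80 and 2.09 CPM in its mates).

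At 48 h 5 of the 10 genes were higher in KO than in WT cells and 1 was lower, against 11.9% of all genes called (6.86% higher and 5.07% lower). The median log2 difference of the 10 was 0.55, against -0.01 over all genes. Counted by libraries that do not overlap, 6 were higher and 1 lower, against 16.2% and 19.7% of all genes. ADM had 9.96, 11.3 and 11.9 CPM in KO, against 5.48, 3.85 and 4.70 CPM in WT, a log2 difference of 1.22 ± 0.15 (SE, adjusted p = 3.28e-06 by limma). BHLHE41 had 2.84, 2.61 and 2.55 CPM in KO, against 0.523, 0.568 and 0.682 CPM in WT, a log2 difference of 1.80 ± 0.43 (SE, adjusted p = 0.00575 by limma). All KO libraries were above all WT libraries for both genes, although both were far below their levels at 0 h in KO cells.

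PFKFB4 had 78.3, 78.1 and 90.1 CPM in KO at 48 h, against 56.5, 49.96 and 48.4 CPM in WT (log2 difference 0.69 ± 0.15 SE, adjusted p = 0.00282 by limma). EGLN3 had 14.5, 16.5 and 16.8 CPM in KO, against 11.4, 10.7 and 10.3 CPM in WT (0.57 ± 0.12 SE, adjusted p = 0.00159 by limma). DDIT4 had 44.4, 36.6 and 47.5 CPM in KO, against 19.2, 25.3 and 35.5 CPM in WT (0.73 ± 0.19 SE, adjusted p = 0.0112 by limma). The 3 genes did not overlap between genotypes, but the gap for DDIT4 was narrow, its adjusted p was 0.0932 without library 1 of WT at 48 h, and 0.0538 when only the groups compared entered the fit.

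BHLHE40 was the gene called lower in KO cells at 48 h, with 13.6, 10.2 and 12.2 CPM in KO, against 16.4, 18.2 and 17.4 CPM in WT (log2 difference -0.51 ± 0.17 SE, adjusted p = 0.0495 by limma). The libraries did not overlap, but the call was at the threshold and ended when any 1 of the WT libraries of 48 h, or library 2 or 3 of KO, was left out, with adjusted p from 0.0644 to 0.239. The test by edgeR on the recovered reads gave adjusted p = 0.0543. ANKRD37 had 1.01, 0.631 and 1.397 CPM in KO, against 0.473, 0.697 and 0.659 CPM in WT, and overlapped. Its log2 difference of 0.53 ± 0.18 (SE) had adjusted p = 0.065 by limma, 0.0464 by edgeR and 0.0424 by DESeq2. KDM3A, PFKFB3 and BNIP3 had log2 differences of 0.16, 0.21 and 0.11 and were not called.

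**Figure D3:**
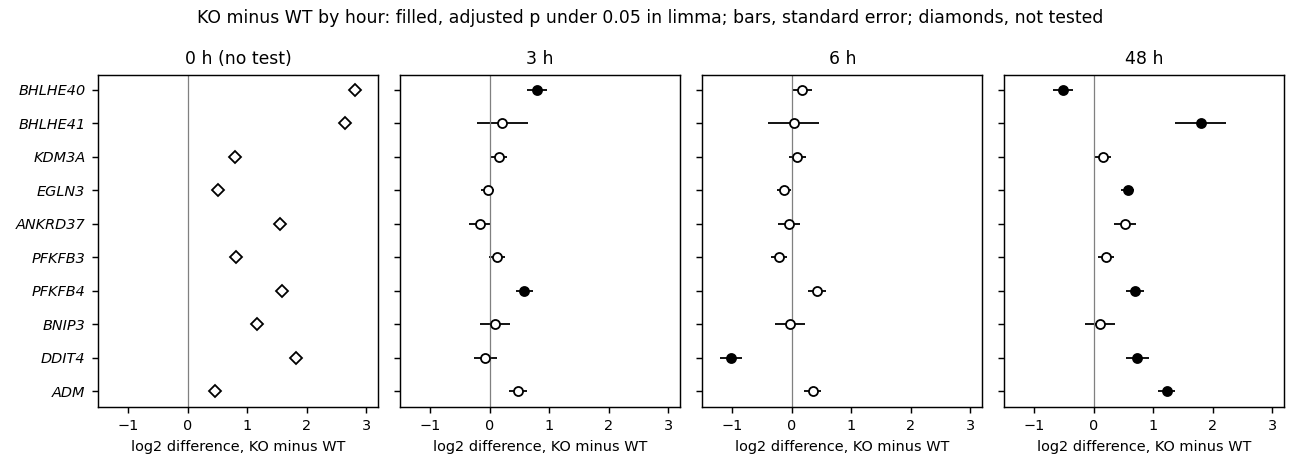
KO minus WT log2 difference of each of the 10 genes at 0, 3, 6 and 48 h, with standard errors as bars and filled circles for adjusted p under 0.05 (limma). The diamonds at 0 h carry no test. Filled circles number 2 at 3 h, 1 at 6 h and 6 at 48 h, and the circles of DDIT4 at 6 h and of BHLHE40 at 48 h lie left of 0.

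Cell type markers moved with genotype. At 48 h the summed level of 6 pluripotency markers (POU5F1, SOX2, NANOG, LIN28A, TDGF1 and DNMT3B) was 6383 to 6536 CPM in KO, against 4849 to 5133 CPM in WT libraries. The sum of 6 markers of primitive streak and early mesoderm (TBXT, MIXL1, EOMES, MESP1, MSGN1 and TBX6) was 1019 to 1143 CPM in KO, against 1654 to 1848 CPM in WT. The sums were 85.0 to 95.5 CPM in KO, against 51.2 to 63.5 CPM in WT for 3 endoderm markers, and 155 to 179.7 CPM in KO, against 104 to 129 CPM in WT for 4 neuroectoderm markers, a sum that is nearly all OTX2 (155 to 179 CPM in KO, against 104 to 129 CPM in WT), with PAX6 and SOX1 at 0 in WT and at most 0.0407 CPM in KO, and ZIC1 at most 0.295 CPM. The part of these in the differences of the 10 genes was not tested, and in bulk RNA fewer cells of a type cannot be told apart from less RNA per cell. At 0 h 6 fibroblast and stroma markers summed to 389 to 404 CPM in KO, against 213 to 254 CPM in WT, with DCN and LUM at 0 in every library of both groups. The order was the opposite at 6 h, with sums of 48.0 to 53.4 CPM in KO, against 104.9 to 109.9 CPM in WT, and at 3 h the sums were 46.5 to 115 CPM in KO, against 116 to 125 CPM in WT. COL1A2 was at 3.39 to 6.92 CPM in KO, against 35.9 to 40.4 CPM in WT at 3 h, and at 3.17 to 3.35 CPM in KO, against 25.9 to 27.5 CPM in WT at 6 h. Pluripotency markers summed to 6459 to 6723 CPM in KO, against 6903 to 7339 CPM in WT at 6 h, and overlapped at 3 h. Primitive streak markers summed to 96.0 to 119 CPM in KO, against 87.6 to 90.3 CPM in WT at 3 h, and overlapped at 6 h. The part of these in the differences at 3 and 6 h was not tested.

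Over time the 10 genes took separate paths. As a description, 7 of the 10 were lower at 3 h than at 0 h in KO cells without overlap, and 3 of the 10 in WT cells, against 35.7% of all genes in KO and 32.4% in WT (41.6% in WT without library 1 of 0 h, where 4 were lower). Higher at 3 h were 1 of the 10 in KO and 4 in WT, against 31.9% and 25.7% of all genes (34.1% in WT without that library, where 5 were higher). At 48 h against 0 h 1 was higher and 9 were lower in KO (38.6% and 32.7% of all genes), and 1 was higher and 6 were lower in WT (25.3% and 23.6%, or 34.2% and 33.5% without library 1 of 0 h, where 3 were higher and 6 lower). ANKRD37 had 7.98, 0.711, 0.547 and 1.01 CPM in KO cells at 0, 3, 6 and 48 h, and 2.65, 0.826, 0.576 and 0.610 CPM in WT cells. BHLHE41 had 25.3, 2.32, 3.31 and 2.67 CPM in KO, and 6.41, 1.97, 3.25 and 0.591 CPM in WT. Most of the KO level of both genes was absent by 3 h. Without library 1 the WT mean of BHLHE41 at 0 h was 1.95 CPM, and the remaining libraries overlapped those of 3 h and lay below those of 6 h. BHLHE40 had 85.6, 68.4, 22.2 and 12 CPM in KO, against 12.8, 38.5, 19.8 and 17.3 CPM in WT, and so was higher at 3 h than at 0 h in every WT library.

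DDIT4 likewise had 272, 156, 27.1 and 42.8 CPM in KO cells at 0, 3, 6 and 48 h, and 82.9, 164, 55.2 and 26.7 CPM in WT cells. At 3 h its WT libraries were all above those of 0 h and its KO libraries all below. BNIP3 had 382, 169, 75.7 and 624 CPM in KO, against 206, 159, 77.6 and 586 CPM in WT, with its lowest mean at 6 h and its highest at 48 h in both genotypes. Without library 1 its WT mean at 0 h was 121 CPM, and both remaining libraries lay below every WT library of 3 h. ADM had 95.1, 145, 142 and 11.1 CPM in KO, against 74.1, 104, 112 and 4.68 CPM in WT. EGLN3 was close to level over the first 3 times in KO cells, at 43.6, 44.0 and 44.2 CPM, and at 15.9 CPM at 48 h. In WT cells EGLN3 had 32.2, 45.1, 48.6 and 10.8 CPM. Its WT libraries of 3 and 6 h lay above those of 0 h without overlap, with or without library 1.

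**Figure D4:**
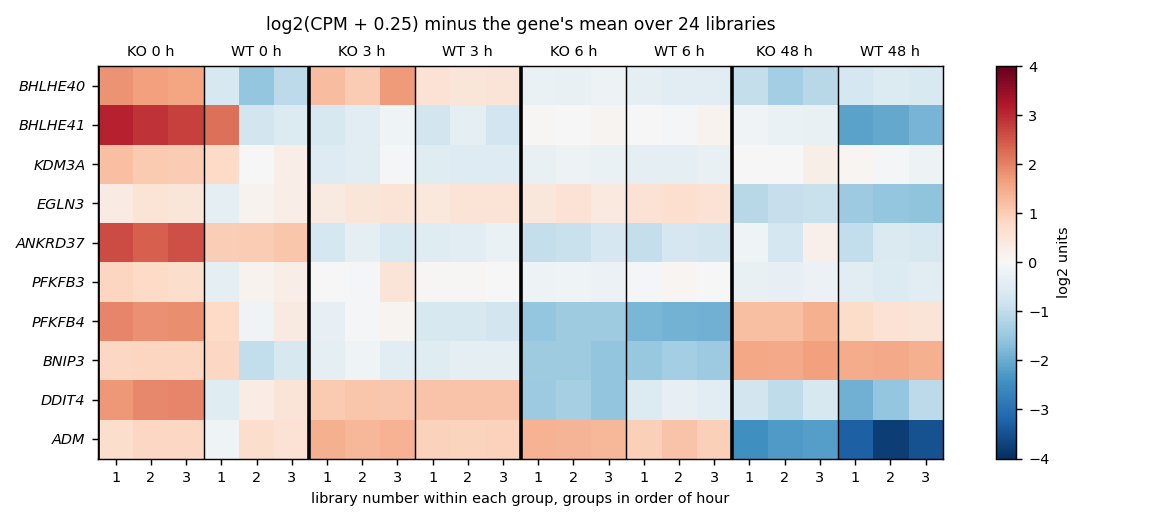
Level of each of the 10 genes in each of the 24 libraries, as log2(CPM + 0.25) minus the gene's mean over all libraries (red above the mean, blue below), with KO left of WT at each hour. The KO columns of 0 h are red in every row, PFKFB4 and BNIP3 are blue at 6 h and red at 48 h, and ADM is deep blue at 48 h.

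Between 3 and 6 h the same 4 genes were called lower in each genotype, BHLHE40, PFKFB4, BNIP3 and DDIT4. None of the 10 was called higher, also at an unadjusted p under 0.05 and by edgeR and DESeq2. PFKFB3 had a log2 change of -0.33 in KO (unadjusted p = 0.0224, adjusted p = 0.0921 by limma). With library 1 of WT at 0 h out of the pooled spread, BHLHE41 was called higher in each genotype (adjusted p = 0.00488 in KO and 0.000593 in WT by limma). PFKFB3 was then called lower in KO (adjusted p = 0.0192 by limma). Over all genes that fit called 5391 of 20292 in KO and 4615 in WT. PFKFB3 was also called lower without library 1 or library 2 of KO at 3 h (0.0484 and 0.045). Both of those fits kept library 3 of KO at 3 h (69.5 CPM, against 47.7 and 47.0 CPM). Without library 3 it was not called. When the fit held no libraries but those of the 2 groups, BHLHE41 (0.70), KDM3A (0.20), ADM (0.15) and EGLN3 (0.15) were called higher in WT on the log2 scale, and BHLHE41 (0.54) in KO, with adjusted p of at most 0.0464. Over all genes those fits called 8086 of 17825 in WT and 2394 of 17441 in KO, in either direction. Over all genes 18.8% were called in KO (11.1% lower) and 15.1% in WT (8.31% lower). At 6 h against 3 h DDIT4 fell by 2.48 ± 0.19 in KO and fell by 1.54 ± 0.19 in WT cells (log2, SE). BHLHE40 fell by 1.55 ± 0.17 in KO and fell by 0.92 ± 0.17 in WT. PFKFB4 fell by 1.35 ± 0.15 in KO and fell by 1.18 ± 0.15 in WT, and BNIP3 fell by 1.12 ± 0.25 in KO and fell by 1.00 ± 0.25 in WT. The highest adjusted p among these 8 values was 0.00854 by limma, for BNIP3 in WT, and the 2 genotypes are compared at each hour above, with no test of the difference between these changes. The other 6 genes were not called in either genotype, and ADM, KDM3A and EGLN3 had log2 changes of 0.01 to 0.20.

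Between 6 and 48 h, when 62.8% of all genes were called in KO and 63.8% in WT, the 10 genes divided, with 4 called higher and 3 lower in KO (30.2% and 32.6% of all genes) and 2 higher and 5 lower in WT (30.9% and 32.8%). PFKFB4 rose by 2.61 ± 0.15 in KO and 2.35 ± 0.15 in WT cells, and BNIP3 rose by 2.90 ± 0.25 in KO and 2.76 ± 0.25 in WT (log2, SE). ADM fell by 3.80 ± 0.15 in KO and fell by 4.67 ± 0.15 in WT, and EGLN3 fell by 1.60 ± 0.12 in KO and fell by 2.30 ± 0.12 in WT. These 4 genes were called in both genotypes in the same direction, with adjusted p of at most 2.02e-09 by limma. In KO cells ANKRD37 also rose (0.52 ± 0.18, adjusted p = 0.0169 by limma) and BHLHE40 fell by 1.02 ± 0.17 (adjusted p = 1.37e-05). In WT cells BHLHE41 fell by 2.18 ± 0.43 (adjusted p = 0.000113) and PFKFB3 fell by 0.64 ± 0.13 (adjusted p = 0.000238 by limma). These falls were not shown to be particular to 1 genotype. BHLHE40 in WT (-0.34, adjusted p = 0.0797 by limma) and BHLHE41 in KO (-0.42, 0.409) were also lower without overlap. Both were called without library 1 of WT at 0 h in the pooled spread (0.0351 and 0.0188). PFKFB3 in KO (-0.22, 0.164) overlapped, and was called with only the groups compared (0.00247), a fit that called 14396 of 18018 genes. The call of ANKRD37 in KO ended without library 3 of KO at 48 h (adjusted p = 0.116).

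DDIT4 rose by 0.51 ± 0.19 in KO between 6 and 48 h (log2, SE, adjusted p = 0.023 by limma) and fell by 1.24 ± 0.19 in WT (adjusted p = 5.49e-06). The rise in KO was lost without library 3 of KO at 6 h (adjusted p = 0.056) or at 48 h (adjusted p = 0.0596). The difference between the genotypes in this change was tested itself and was 1.75 ± 0.27 on the log2 scale (adjusted p = 8.68e-05 by limma). ADM and EGLN3 also changed less in KO than in WT cells, with differences of 0.87 ± 0.21 (adjusted p = 0.0084) and 0.70 ± 0.16 (adjusted p = 0.00715). These 3 of the 10 were called, against 8.27% of all genes, 5.37% with a positive difference. Without library 1 of WT at 0 h in the pooled spread the count was 6, with BHLHE40 (-0.66, adjusted p = 0.0165), BHLHE41 (1.79, adjusted p = 3.1e-07) and PFKFB3 (0.44, adjusted p = 0.0275) added. The count over all genes was then also larger, 2619 of 20292 in place of 1641 of 19835.

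The genes that run the HIF pathway were described from a list of 12 regulators. At 0 h HIF1A, the main alpha subunit, was at 243 ± 7.18 CPM in KO, against 268 ± 16.8 CPM in WT cells, and VHL at 70.6 ± 1.26 CPM in KO, against 71.5 ± 8.35 CPM in WT (SD, n = 3 each). Of the 12, 1 was higher without overlap in KO at 0 h, EGLN1, and 1 was lower, HIF1A, against 10.1% and 15.6% of all genes (3 and 2 without library 1 of WT, against 26.3% and 33.1%). EGLN1, the main oxygen-sensing hydroxylase and itself a HIF target, was at 76.6 ± 4.61 CPM in KO, against 31.0 ± 15.5 CPM in WT. At 3 and 6 h none of the 12 was called by limma, edgeR or DESeq2 between the genotypes, with 2 at 3 h and 2 at 6 h below an unadjusted p of 0.05.

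At 48 h 1 of the 12 regulators was higher in KO cells and 1 was lower, against 6.86% and 5.07% of all genes. EPAS1, the other alpha subunit, was at 1.63 ± 0.30 CPM in KO, against 0.942 ± 0.21 CPM in WT (log2 difference 0.67 ± 0.18 SE, adjusted p = 0.0131 by limma). CITED2, which competes with HIF for its coactivators, was at 29.3 ± 1.95 CPM in KO, against 58.8 ± 6.81 CPM in WT (-0.97 ± 0.12 SE, adjusted p = 3.4e-06 by limma). With library 1 of WT at 0 h left out of the pooled spread, 2 of the 12 were called lower at 6 h, and 3 higher and 1 lower at 48 h. Over all genes that fit called 942 (6 h) and 3704 (48 h) of 20292. Between 6 and 48 h HIF3A, ARNT, EGLN1, CITED2 and HIF1A rose in both and EPAS1 and EGLN2 fell in both, with log2 changes of EGLN1 of 1.71 ± 0.19 in KO and 1.61 ± 0.19 in WT (SE). Of the 12 regulators, 5 were called higher and 3 lower in KO, and 5 higher and 2 lower in WT. These counts stand beside 62.8% of all genes called in KO and 63.8% in WT. CREBBP fell by 0.43 ± 0.12 in KO (adjusted p = 0.00307 by limma) and had a log2 change of -0.23 ± 0.12 in WT (adjusted p = 0.0913), and the difference between these changes was not called (-0.20 ± 0.17, adjusted p = 0.624 by limma). EPAS1 was at 3.69, 11.8, 9.81 and 1.63 CPM in KO cells at 0, 3, 6 and 48 h, and at 4.06, 16.1, 14.5 and 0.942 CPM in WT cells.

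A list of 30 other HIF targets, which shares VLDLR with the ATF4 list and RORA with the clock list, was described the same way. At 0 h 12 of the 30 were higher in KO without overlap and 1 lower, with a median log2 difference of 0.85, against 10.1% of all genes higher and 15.6% lower. Without library 1 of WT 23 were higher and 2 lower, against 26.3% and 33.1% of all genes. At 3 h none of the 30 was called by limma, edgeR or DESeq2, with 3 lower at an unadjusted p under 0.05. At 6 h STC2, a secreted glycoprotein, was the 1 gene called by limma (edgeR called 1 and DESeq2 called 2), at 176 ± 12.6 CPM in KO, against 244 ± 13.7 CPM in WT (log2 difference -0.46 ± 0.10 SE, adjusted p = 0.00749 by limma). Of all genes 2.45% were called at 6 h. At 48 h 5 of the 30 (STC2, AK4, VEGFA, LOX and NRN1) were higher in KO and none was lower, also at an unadjusted p under 0.05 and by edgeR and DESeq2. The median over the list was 0.14, and 6.86% of all genes were called higher. LOX and NRN1 were under 5 CPM in both groups and are named because the count is small, after their values were seen. Leaving library 1 of WT at 0 h out of the pooled spread, 3 were called lower at 3 h, 4 lower at 6 h and 9 higher at 48 h. Over all genes that fit called 1219, 942 and 3704 of 20292 at these hours.

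STC2 was at 51.4 ± 4.35 CPM in KO, against 29.7 ± 1.45 CPM in WT at 48 h (0.80 ± 0.10 SE, adjusted p = 3.85e-06 by limma). It was thus lower in KO at 6 h and higher at 48 h, as DDIT4 was. The mitochondrial adenylate kinase AK4 was at 353 ± 10.7 CPM in KO, against 245 ± 19.4 CPM in WT (0.55 ± 0.09 SE, adjusted p = 0.000273). VEGFA, the main angiogenic growth factor, was at 39.2 ± 2.04 CPM in KO, against 28.4 ± 2.54 CPM in WT (0.48 ± 0.13 SE, adjusted p = 0.0154 by limma).

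Of 20 glycolysis genes bound by HIF, 5 were higher in KO at 0 h without overlap and none was lower, against 10.1% of all genes higher, and all 20 were higher without library 1 of WT, against 26.3%. After induction began their medians were below 0, at -0.17 at 3 h and -0.15 at 6 h. There 12 of 20 at 3 h and 14 of 20 at 6 h were lower in KO without overlap, against 11% and 14.9% of all genes. No single gene of the list was called at either hour by limma, edgeR or DESeq2, with 3 at 3 h and 1 at 6 h below an unadjusted p of 0.05. Without library 1 of WT at 0 h in the pooled spread 5 were called lower at 3 h and 4 at 6 h, and 6 were called higher and 1 lower at 48 h. Over all genes that fit called 1219 (3 h), 942 (6 h) and 3704 (48 h) of 20292. At 48 h the median was 0.10, and HK1, a hexokinase that phosphorylates glucose at the entry to glycolysis, was the 1 gene called, at 562 ± 5.66 CPM in KO, against 353 ± 31.4 CPM in WT (0.69 ± 0.09 SE, adjusted p = 1.5e-05 by limma). This 1 of 20 stands beside 11.9% of all genes called at that hour.

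**Figure D5:**
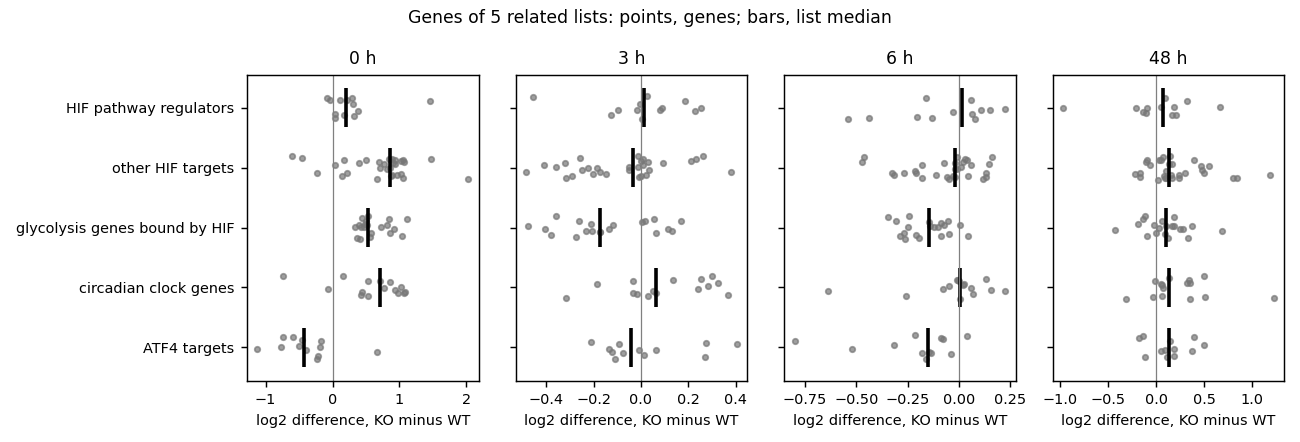
KO minus WT log2 difference of each gene (points) and the list median (bars) for HIF pathway regulators, other HIF targets, glycolysis genes bound by HIF, circadian clock genes and ATF4 targets at 0, 3, 6 and 48 h, on axes that differ between panels. At 0 h the medians of the target, glycolysis and clock lists lie right of 0 and that of the ATF4 targets left of it, and the glycolysis median lies left of 0 at 3 and 6 h.

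As BHLHE40 and BHLHE41 act on the circadian clock and DDIT4 is also a target of the stress factor ATF4, both sets were described too. Of 15 clock genes tested 5 were higher in KO at 0 h without overlap and none lower, against 10.1% and 15.6% of all genes (12 and 1 without library 1 of WT, against 26.3% and 33.1%). At 48 h NPAS2, a partner of BMAL1 in the clock, was the 1 gene called, at 2.13 ± 0.23 CPM in KO, against 0.768 ± 0.11 CPM in WT (1.23 ± 0.18 SE, adjusted p = 4.86e-05 by limma). It was under 5 CPM in both groups and is named after its value was seen. Of all genes 11.9% were called at 48 h. Of 12 ATF4 targets none was higher and 4 were lower in KO at 0 h without overlap (1 and 8 without library 1 of WT), beside the same shares of all genes. At 6 h CHAC1, which breaks down glutathione, was the 1 gene called, at 20.9 ± 2.06 CPM in KO, against 36.9 ± 4.60 CPM in WT (-0.80 ± 0.21 SE, adjusted p = 0.0412 by limma). DDIT4 was lower in KO at the same hour, when 2.45% of all genes were called. None of the clock genes was called at 3 or 6 h, nor any ATF4 target at 3 or 48 h, by limma, edgeR or DESeq2. Below an unadjusted p of 0.05 there were 2 clock genes at 3 h and 1 at 6 h, and no ATF4 target at 3 or 48 h. When library 1 of WT at 0 h was left out, 1 clock gene was called lower at 6 h and 6 higher at 48 h, and 2 ATF4 targets were called lower at 6 h and 2 higher at 48 h. Over all genes that fit called 942 (6 h) and 3704 (48 h) of 20292.

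The 10 genes were also set beside all others by the shape of their course over the 8 groups, as a description. The root mean square distance on the log2 scale, between a gene's centred group means and the mean course of the 10, had a median of 0.758 over 12309 genes. The 5 closest were PMEL (0.20), NEAT1 (0.223), PPP1R3C (0.229), ATP1B2 (0.236) and GPR137B (0.237). PMEL, a melanosome protein, was at 193 CPM in KO, against 102 CPM in WT at 0 h and at 57.7 CPM in KO, against 40.4 CPM in WT at 48 h. Among the 10 themselves KDM3A and PFKFB3 were closest to each other (0.386), then PFKFB4 and BNIP3 (0.566), and ADM was the farthest from the mean course (1.53). The nearest of the 10 to the mean course was PFKFB3 (0.322). BNIP3 (1.23), PFKFB4 (1.05) and BHLHE41 (0.769), like ADM, were farther from it than the median gene. The mean course includes the groups of 0 h, whose values were in view when the 10 were chosen. The points share libraries, so no test was made.

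Other genes lie over parts of these genes. ANKRD37 overlaps UFSP2 on the opposite strand, which had 24.2 to 41.9 CPM, and BHLHE41 overlaps SSPN (0.535 to 4.60 CPM) and BHLHE40 an antisense RNA, BHLHE40-AS1 (0.277 to 2.92 CPM). EGLN3 overlaps SPTSSA on the same strand, which had 30.4 to 110.4 CPM. The kit marks strand, but whether the counting used it is not given in the sources used here, so reads of such pairs may be shared.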

How the data were processed

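RNA of 24 libraries was sequenced as stranded mRNA. Per the submitters' processing notes hg38 and DESeq2 were used; the sources used here do not give the aligner, the annotation release or the strand setting. The deposited gene table holds CPM, computed by the authors. Its column names stand 1 cell off their values. After realignment 22 of 24 libraries were closest to the deposited transcript counts of the same name, and 24 of 24 to a library of their own group. CPM steps gave whole reads for 100% of values (tolerance 0.1 read).

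Levels were divided by TMM factors and tested as log2(CPM + 0.25) with limma 3.58.1 in R 4.3.3, with 8 groups in 1 fit, a mean-variance trend and no covariate. Genes passed filterByExpr (10 reads, 15 in total), leaving 19835. Tests were two-sided with Benjamini-Hochberg adjustment within each of 8 comparisons and called at adjusted p under 0.05. Printed levels are CPM as deposited. Differences at 0 h and from 0 h are differences of group means of the same log2 values, untested. A count of 3 reads corresponds to 0.0595 to 0.1003 CPM, which covers counting error only. edgeR 4.0.16 (quasi-likelihood) and DESeq2 1.42.0 on the recovered reads were alternatives, as were other filters, pseudocounts, scalings and library sets.

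All 10 genes were named. Any HIF regulator could be named, and ARNT2, HIF1AN and EP300 were counted but not described singly. Of each other list up to 3 called genes per comparison with at least 5 CPM in a group were named. LOX, NRN1 and NPAS2 were named outside this rule. The 10 genes and the lists were chosen with earlier results of these data known. The transcript table (counts, deposited by the authors) gave no result here.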

Additional observations from a re-analysis of the deposited data

Results flagged for a closer look

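The change between 6 and 48 h differed between KO and WT cells, by a test of the difference itself (limma, adjusted over all genes), in 3 of the 10 genes. For ADM the difference on the log2 scale was 0.87 (adjusted p = 0.0084), since ADM fell by 3.80 in KO and fell by 4.67 in WT. For EGLN3 it was 0.70 (adjusted p = 0.00715), as it fell by 1.60 in KO and fell by 2.30 in WT. For DDIT4 it was 1.75 (adjusted p = 8.68e-05), with a rise of 0.51 in KO, while it fell by 1.24 in WT, and all 3 KO libraries of 48 h lay above all 3 of 6 h while all 3 WT libraries lay below.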

How the results depend on the processing

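Of 80 values for the 10 genes in the 8 tested comparisons, 43 kept their direction and side of the threshold in every alternative, 6 lost and 22 gained a call in at least 1, and 9 changed sign. The 17 values of opposite sign, from -0.06 to 0.07 on the log2 scale, were never called (lowest adjusted p 0.684). With CPM as deposited these were PFKFB3 at 6 against 3 h in WT (-0.018), ANKRD37 at 48 against 6 h in WT (0.0515) and ADM at 6 against 3 h in KO (-0.0269). Without the 3 libraries treated as standing apart it was PFKFB3 in KO against WT at 3 h (-0.0538). With single libraries left out, values that changed sign ranged in KO against WT from -0.0574 to 0.225 for PFKFB3 and from -0.0862 to 0.0285 for EGLN3 at 3 h, and at 6 h from -0.00686 to 0.0861 for BHLHE41, from -0.128 to 0.00533 for ANKRD37 and from -0.06996 to 0.0223 for BNIP3. They ranged from -0.0322 to 0.0614 for PFKFB3 at 6 against 3 h and from -0.122 to 0.0696 for ANKRD37 at 48 against 6 h in WT, and at 6 against 3 h in KO from -0.0228 to 0.0545 for ADM and from -0.0198 to 0.106 for EGLN3. CPM as deposited moved the median of all genes at 48 against 6 h to 0.098 in WT and 0.084 in KO, from values near 0.

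The number of the 10 genes called between genotypes at 3 h was 2, and 1 with no filter. ADM was called in addition with only the groups compared (adjusted p = 0.0165 by limma). The same held without the 3 libraries (0.000938) and without library 1 of WT at 0 h (0.00262). At 6 h the number was 1, and 4 with only the groups compared, 4 without the 3 libraries and 3 without library 1 of WT at 0 h. For 6 against 3 h in WT it was 4 (all lower), and 8 with only the groups compared, the 4 added ones higher. That fit called 8086 of all 17825 genes, against 2987 of 19835 in the main fit. For the difference between genotypes in the change between 6 and 48 h it was 3, and 6 under each of those 3 alternatives. The last, without library 1 of WT at 0 h, was chosen after seeing the data, and the cause of these shifts was not tested. With single libraries left out the counts ranged over 0 to 3 at 3 h, 1 to 3 at 6 h and 4 to 7 at 48 h between genotypes, over 4 to 5 (WT) and 4 to 6 (KO) at 6 against 3 h, over 7 to 8 (WT) and 5 to 9 (KO) at 48 against 6 h, and over 3 to 6 for the difference in change.

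Among all genes tested, the comparisons between genotypes called 552 (3 h), 486 (6 h) and 2365 (48 h) of 19835. These 3 counts became 1851, 2430 and 4788 of 20140 without the 3 libraries. Without library 1 of WT at 0 h they were 1219, 942 and 3704 of 20292. With only the groups compared they were 376 of 17740, 2773 of 17584 and 2885 of 17699. At a minimum of 5 CPM the count at 6 h was 319 of 12376. For the difference in change the count was 1641 of 19835, and 3104 of 18948 with only the groups compared. It was 4527 of 20140 without the 3 libraries and 2619 of 20292 without library 1 of WT at 0 h. At 6 against 3 h in KO it was 3730 of 19835 (2394 of 17441 with only the groups compared, 6328 of 20140 without the 3 libraries). In WT it was 2987 of 19835 (8086 of 17825 and 7467 of 20140 in the same fits). Without library 1 of WT at 0 h it was 4615 of 20292 in WT. Libraries of the same number in 2 groups had correlations of -0.186 to 0.187 in their deviations from the group means. These were not set against libraries of unlike numbers, so they do not decide whether the libraries are paired. A fit with the replicate block called 2, 1 and 6 of the 10 between genotypes at 3, 6 and 48 h, as without it.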
